A study of Drosophila melanogaster with 4 samples.

Results

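Small RNAs of Drosophila Schneider 2 (S2) cells, a line of embryonic origin, were compared between 1 library of nbrKO cells carrying Act5C>NbrCTD-GWp and 1 library of nbrKO cells carrying Act5C>NbrCTD. Both groups lack the gene for Nibbler (Nbr), removed by CRISPR-Cas9, and both carry their construct by stable transfection under the Act5C driver, which the sample titles call overexpression. Since CTD and GWp are not explained in the labels, both constructs keep their label names. Of the 495 entries of the deposited table, each a 5′ isoform of a miRNA arm, 297 had a value in both libraries. Another 64 had one in NbrCTD-GWp only, 56 in NbrCTD only and 78 in neither. Summing loci that share a mature name and a 5′ end turned the 297 entries into 288 miRNA arms.

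Cells of both groups grew at 25 °C, and each library came from 25 µg of total RNA, from which 2S rRNA was depleted and RNA between 18 and 30 nt was kept. The series has 4 groups of 1 library each. Neither libraries of this length nor the deposited table measure Nbr mRNA or the amount of either construct, so the expression of NbrCTD-GWp and of NbrCTD cannot be set side by side. Whether the transfected cells are 1 clone or a pool is not stated, and an empty construct was not analysed here. The shares of nbrKO cells carrying Act5C>Nbr(wt), another library of the series, are given beside some results. With 1 library per group no difference below has a replicate check, every comparison is between these libraries, and intervals cover counting error only.

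Nibbler is a 3′-to-5′ exonuclease that shortens the 3′ ends of many Drosophila miRNAs after they have been loaded into Argonaute1. The 3′ ends of Argonaute-bound miRNAs are also a place where terminal nucleotidyl transferases add untemplated bases, and such added bases are called tails. A miRNA precursor has 2 arms, 5p and 3p. The guide is the arm that is mostly kept in Argonaute and the passenger is mostly discarded. The question addressed by the comparison is how tails, abundance, 5′ ends and arm usage of miRNAs differ between cells with NbrCTD-GWp and cells with NbrCTD.

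The first 7 bases are shown for selected arms whose tailed share fell and for the arms that share those bases. They are also shown for bantam-3p, the deepest arm, whose share did not differ beyond counting error. Bases are given as the deposited table lists them, 5′ to 3′ in DNA letters, with bases 2 to 7 in capitals. Bases 2 to 7 are the core of the seed, the stretch of a miRNA that pairs with its targets. Arms on chromosome arm 2R are named without sequence. miR-4943-3p, which has the same first 7 bases as miR-317-3p, is not listed.
miR-34-5p: tGGCAGT
miR-305-5p: aTTGTAC
miR-317-3p: tGAACAC
miR-980-3p: tAGCTGC
miR-1000-5p: aTATTGT
miR-1007-3p: tAAGCTC
miR-995-3p and miR-998-3p: tAGCACC
miR-275-3p and miR-306-5p: tCAGGTA
miR-9b-5p and miR-9c-5p: tCTTTGG
miR-279-3p and miR-996-3p: tGACTAG
miR-2a-3p, miR-2b-3p, miR-2c-3p, miR-13a-3p and miR-13b-3p: tATCACA
bantam-3p: tGAGATC

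The 288 arms held 17269733 reads in NbrCTD-GWp and 14468227 reads in NbrCTD, or 63.2% of the library total in NbrCTD-GWp and 54.6% in NbrCTD. At least 100 reads in both libraries were reached by 118 arms, and their part of all reads counted for the 288 arms was 99.98% in each library. The 16 arms listed as common in S2 cells were all measured and summed to 879722 miRNA RPM in NbrCTD-GWp and 856693 miRNA RPM in NbrCTD. miRNA RPM are RPM with the reads of the 288 arms as the total. Of 23 arms listed as marks of muscle, neuron, larval and adult tissue, early embryo, ovary or testis, 18 had a value in both libraries. Their sum was 168 miRNA RPM in NbrCTD-GWp and 186 miRNA RPM in NbrCTD. The muscle arm miR-1-3p had 13 reads in NbrCTD-GWp and 8 in NbrCTD, and the neuronal arm miR-124-3p had 22 in NbrCTD-GWp and 21 in NbrCTD. The ovary arm miR-318-3p was the deepest of them, with 1534 reads in NbrCTD-GWp and 1450 in NbrCTD.

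Tails were less frequent in NbrCTD-GWp than in NbrCTD. The tailed share is the percentage of an arm's reads that carry an untemplated 3′ end. It was 1.87% over all reads of the 288 arms in NbrCTD-GWp and 2.62% in NbrCTD. Of the 118 arms measured, 40 were lower in NbrCTD-GWp, which is 33.9%, and 4 were higher, which is 3.39%. Lower or higher means here that the exact 95% intervals of the 2 libraries did not overlap. The intervals of the other 74 arms overlapped. Among the 16 S2 arms the counts were 14 lower and 0 higher, and of the 3 measured marks of other cells 0 were called. Depth differed between these lists. All 16 S2 arms had at least 10000 reads in both libraries, a depth at which 33 of 48 arms were lower. The 3 marks had 353 to 1534 reads. The median tailed share was 2.25% in NbrCTD-GWp and 2.73% in NbrCTD. The log2 odds ratio of tailed over untailed reads was below 0 in 88 of the 118 arms, with a median of -0.32.

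**Figure D1:**
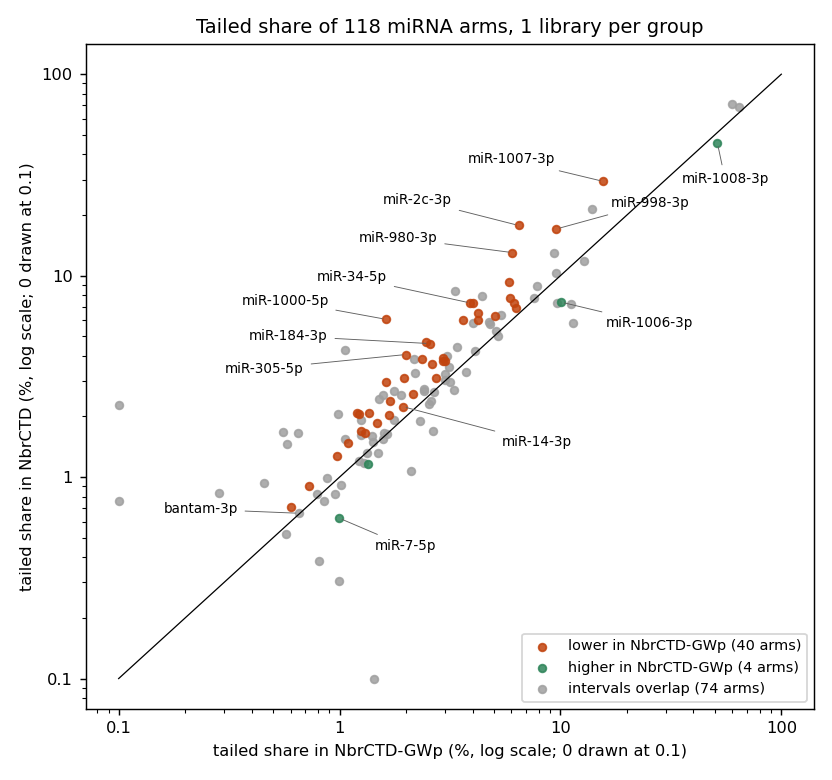
Tailed share of each of 118 miRNA arms in NbrCTD-GWp (x axis) and NbrCTD (y axis), both in percent on log scales, with the line of equal shares and values of 0 drawn at 0.1. Orange points above the line are the 40 arms lower in NbrCTD-GWp, green points below it are the 4 higher arms, and the 74 grey arms had overlapping intervals.

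The pooled share rests on the composition of a library as well as on each arm. With every arm's abundance held at its NbrCTD level, the 118 arms would have a pooled share of 1.93% in NbrCTD-GWp, against the measured 2.62% in NbrCTD. Leaving out bantam-3p, the most abundant arm, gave 2.50% in NbrCTD-GWp and 3.49% in NbrCTD. Tailed reads summed to 18731 miRNA RPM in NbrCTD-GWp and 26208 miRNA RPM in NbrCTD, and 5 arms held 60.4% of the difference. miR-14-3p held 23.8% of it, miR-980-3p 17.2%, miR-184-3p 8.25%, miR-8-3p 6.26% and miR-998-3p 4.85%. miR-14-3p led through its abundance more than its share. Its tailed reads came to 2114 miRNA RPM in NbrCTD-GWp and 3896 in NbrCTD, while its tailed share was 1.93% (1.91 to 1.95) in NbrCTD-GWp and 2.24% (2.22 to 2.26) in NbrCTD.

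The guides of several abundant S2 miRNAs had the clearest falls. miR-980-3p, which has been tied to memory formation in flies, had a tailed share of 6.06% (95% interval 5.93 to 6.18) in NbrCTD-GWp and 13.0% (12.9 to 13.2) in NbrCTD, a log2 odds ratio of -1.21. miR-998-3p, which lies in an intron of E2f1, had 9.58% (9.37 to 9.80) in NbrCTD-GWp and 17.1% (16.8 to 17.3) in NbrCTD. miR-184-3p, which is needed for oogenesis and early embryos, had 2.56% (2.53 to 2.58) in NbrCTD-GWp and 4.60% (4.56 to 4.64) in NbrCTD. All 3 arms had at least 65288 reads in each library, and each gap is many times the width of the intervals. miR-275-3p had 2.46% in NbrCTD-GWp and 4.66% in NbrCTD. miR-8-3p, the fly counterpart of miR-200, had 4.24% in NbrCTD-GWp and 6.0% in NbrCTD.

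Arms with fewer reads also stood among the largest falls. miR-1007-3p, made from an intron of Abca3, had 15.6% (13.7 to 17.8) in NbrCTD-GWp and 29.4% (27.0 to 31.8) in NbrCTD, the largest fall in percentage points among the 118 arms. miR-1000-5p, which limits glutamate release in neurons, had 1.62% (0.743 to 3.05) in NbrCTD-GWp and 6.07% (4.07 to 8.66) in NbrCTD. It rests on 556 reads in NbrCTD-GWp and 461 in NbrCTD, and its log2 odds ratio of -1.92 runs from -3.0 to -0.85. miR-970-3p, in an intron of Tomosyn, had 4.24% in NbrCTD-GWp and 6.53% in NbrCTD. miR-995-3p, in an intron of Cdk2, had 3.61% in NbrCTD-GWp and 6.0% in NbrCTD. miR-281-3p, summed over its loci, had 5.86% in NbrCTD-GWp and 9.31% in NbrCTD.

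miR-2c-3p had 6.46% (6.03 to 6.91) in NbrCTD-GWp and 17.8% (16.5 to 19.0) in NbrCTD. Its value is uncertain, because the deposited table splits reads among the nearly identical miR-2 and miR-13 arms, and those of miR-2c-3p are not whole numbers. The abundance and the 5′ isoform fraction of this arm also differed between the libraries. The more abundant miR-2b-3p of the same family had 1.69% in NbrCTD-GWp and 2.39% in NbrCTD.

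**Figure D2:**
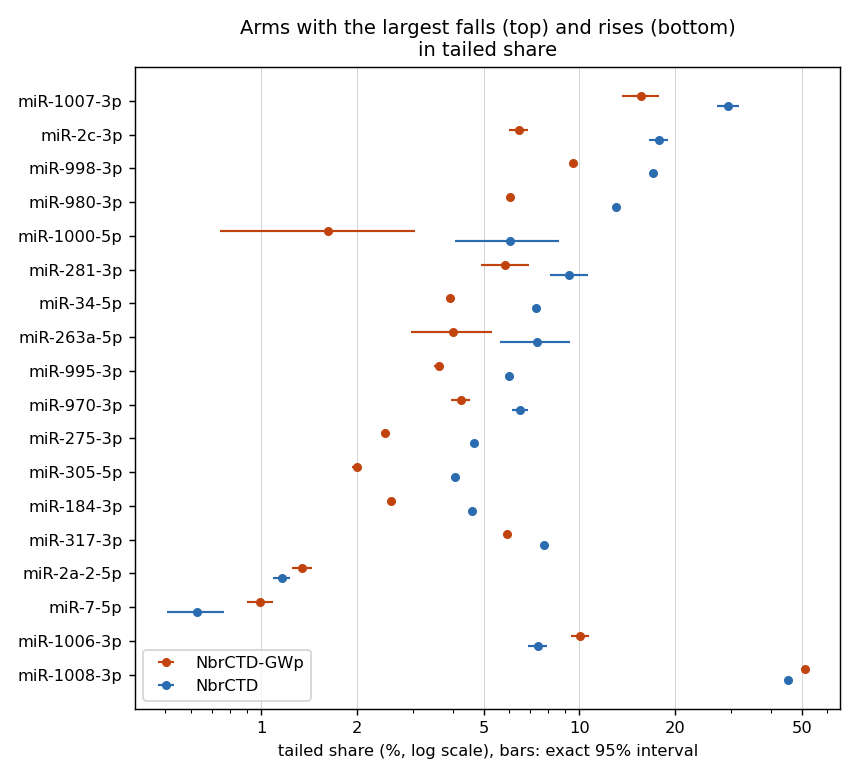
Tailed share in percent (x axis, log scale) of the 14 arms with the largest falls and the 4 arms that were higher, with exact 95% intervals as bars, orange for NbrCTD-GWp and blue for NbrCTD. miR-1007-3p heads the falls at 15.6% in NbrCTD-GWp and 29.4% in NbrCTD, and miR-1008-3p has the highest shares, 51.4% in NbrCTD-GWp and 45.4% in NbrCTD.

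Only 4 of the 118 arms were higher in NbrCTD-GWp. miR-1008-3p had 51.4% (50.3 to 52.5) in NbrCTD-GWp and 45.4% (44.5 to 46.3) in NbrCTD. miR-1006-3p had 10.0% (9.39 to 10.7) in NbrCTD-GWp and 7.40% (6.88 to 7.94) in NbrCTD. Both are mirtrons, miRNAs whose hairpin is cut out by splicing, from introns of CG18004 and VhaSFD. The arm with the largest fall in points, miR-1007-3p, is also from a mirtron. miR-7-5p, which acts in Notch and EGF receptor signalling, had 0.992% (0.904 to 1.09) in NbrCTD-GWp and 0.627% (0.507 to 0.767) in NbrCTD. The fourth arm, miR-2a-2-5p, lay just inside the call with 1.34% (1.25 to 1.44) in NbrCTD-GWp and 1.16% (1.09 to 1.23) in NbrCTD.

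Several well-measured arms had overlapping intervals and so were not called. bantam-3p, a growth-promoting miRNA that blocks cell death, had 0.655% (0.648 to 0.661) in NbrCTD-GWp and 0.662% (0.654 to 0.669) in NbrCTD. These shares came from 5850764 reads in NbrCTD-GWp and 4431859 in NbrCTD, and the log2 odds ratio of -0.02 had an interval from -0.04 to 0.01. miR-965-3p had 5.11% (4.95 to 5.28) in NbrCTD-GWp and 5.30% (5.18 to 5.41) in NbrCTD. The mirtron arm miR-1003-3p had 7.59% (7.29 to 7.89) in NbrCTD-GWp and 7.77% (7.46 to 8.09) in NbrCTD. miR-282-5p had 0.789% in NbrCTD-GWp and 0.828% in NbrCTD with overlapping intervals, while its log2 odds ratio ran from -0.13 to -0.01. miR-276a-3p, whose tailed share is similarly low, was lower, with 0.727% in NbrCTD-GWp and 0.908% in NbrCTD.

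Near the edge of the call, miR-9c-5p lay just inside with 2.15% (1.98 to 2.34) in NbrCTD-GWp and 2.60% (2.38 to 2.83) in NbrCTD, as did miR-263a-5p. miR-7-3p lay just outside with 0.581% (0.310 to 0.991) in NbrCTD-GWp and 1.46% (0.970 to 2.10) in NbrCTD. miR-12-3p, with 9.61% in NbrCTD-GWp and 7.35% in NbrCTD, and miR-281-2-5p, with 4.04% in NbrCTD-GWp and 5.84% in NbrCTD, were also just outside.

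Falls were called mostly in deeply sequenced arms. Of the 48 arms with at least 10000 reads in the shallower library, 33 were lower and 2 higher in NbrCTD-GWp. In this class 40 log2 odds ratios lay below 0, with a median of -0.33. Of 37 arms from 1000 to under 10000 reads, 5 were lower and 2 higher. Only 21 of these 37 had a log2 odds ratio below 0, and their median was -0.13. Of 33 arms from 100 to under 1000 reads, 2 were lower and 0 higher, although 27 of them had a log2 odds ratio below 0 and their median was -0.72. Intervals are wider for arms with few reads, but the median fall also differed between the classes, and the part of depth in these counts was not tested.

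Falls were counted more often among guides than among passengers, and depth moved with that split: the median depth in NbrCTD was 11396 reads for guides and 4200 reads for passengers. Of 60 guides, 26 were lower and 3 higher in NbrCTD-GWp, with a median log2 odds ratio of -0.41. Of 40 passengers, 8 were lower and 0 higher, and their median was -0.20. Among arms with at least 10000 reads in the shallower library, 23 of 31 guides and 6 of 8 passengers were lower. In the 40 precursors with both arms measured, the guide was lower in 23, the passenger in 8 and both in 6, and the guide had the lower log2 odds ratio of the pair in 23. In mir-184 the guide fell by 0.88 on the log2 odds scale, while the passenger miR-184-5p had 2.54% (2.42 to 2.67) in NbrCTD-GWp and 2.31% (2.18 to 2.44) in NbrCTD. In mir-34 both arms were lower, with miR-34-3p at 2.93% in NbrCTD-GWp and 3.75% in NbrCTD.

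By side of the hairpin, 27 of 62 arms from the 3p side and 13 of 56 from the 5p side were lower, with 2 higher on each side. With at least 10000 reads in the shallower library, the counts were 22 of 27 on the 3p side and 11 of 21 on the 5p side, with 0 and 2 higher. Among guides alone at that depth, 15 of 20 from the 3p side and 8 of 11 from the 5p side were lower. Among passengers at that depth, 3 of 3 from the 3p side and 3 of 5 from the 5p side were lower. The remaining arms at that depth were unpaired or joined over loci and have no role assigned. The parts of side and role in these counts were not tested.

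The level of tailing in a separate library was used to order the arms, because the NbrCTD share enters the difference itself. In nbrKO cells carrying Nbr(wt), where 2 of the 118 arms had no value, 17 arms had a tailed share under 1%, and 2 of these were lower and 1 higher in NbrCTD-GWp than in NbrCTD. Of 39 arms between 1% and 2%, 14 were lower and 1 higher. Of 30 arms between 2% and 4%, 13 were lower and 0 higher, and of 20 arms between 4% and 8%, 9 were lower and 1 higher. Of the 10 arms at 8% or more, 2 were lower and 1 higher. The share of falls was thus lowest at both ends of the tailing range, where the deepest and the shallowest arms lie: the median depth in NbrCTD was 11230 reads in the lowest class and 923 in the highest.

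Set beside the Nbr(wt) library, the NbrCTD-GWp shares of some arms lay close to it and those of others did not. miR-305-5p had 1.99% (1.93 to 2.06) with NbrCTD-GWp, 4.06% (3.96 to 4.16) with NbrCTD and 2.00% (1.93 to 2.07) with Nbr(wt). miR-34-5p had 3.92% with NbrCTD-GWp, 7.32% with NbrCTD and 3.70% (3.63 to 3.78) with Nbr(wt). The intervals of NbrCTD-GWp and Nbr(wt) overlapped for miR-305-5p and did not for miR-34-5p, and NbrCTD was the highest of these 3 libraries in both. miR-275-3p, from the same cluster as miR-305-5p, had 2.46% with NbrCTD-GWp, 4.66% with NbrCTD and 4.47% (4.39 to 4.55) with Nbr(wt). miR-980-3p had 6.06% with NbrCTD-GWp, 13.0% with NbrCTD and 9.07% (8.93 to 9.21) with Nbr(wt), so NbrCTD-GWp was the lowest of the 3. miR-317-3p had 5.94% with NbrCTD-GWp, 7.72% with NbrCTD and 4.68% (4.60 to 4.76) with Nbr(wt), so NbrCTD-GWp lay between the others. bantam-3p had 0.655% with NbrCTD-GWp, 0.662% with NbrCTD and 0.654% with Nbr(wt), all with overlapping intervals.

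Of 10 miRNAs reported as Nibbler substrates in flies, 7 reached 100 reads in both libraries. In NbrCTD-GWp 5 were lower, 1 was higher and 1 had overlapping intervals, and their median log2 odds ratio was -0.91, beside 33.9% lower, 3.39% higher and a median of -0.32 over all 118 arms. Of the 5 lower arms, 4 had at least 10000 reads in both libraries, a depth at which 33 of 48 arms were lower. miR-34-5p, the classic substrate, which protects the ageing fly brain, had a tailed share of 3.92% (3.84 to 4.00) in NbrCTD-GWp and 7.32% (7.16 to 7.47) in NbrCTD. miR-305-5p, which acts in intestinal stem cells, had a log2 odds ratio of -1.06. miR-263a-5p, which protects sensory bristles from cell death, had 4.02% (2.96 to 5.33) in NbrCTD-GWp and 7.34% (5.63 to 9.36) in NbrCTD. miR-11-3p, a repressor of pro-apoptotic genes from the same E2f1 intron as miR-998-3p, had 2.37% in NbrCTD-GWp and 3.85% in NbrCTD. miR-317-3p had 5.94% (5.85 to 6.03) in NbrCTD-GWp and 7.72% (7.61 to 7.83) in NbrCTD, at -0.41 the log2 odds ratio nearest 0 of the 5. miR-31a-5p had 3.33% (1.45 to 6.46) of 240 reads in NbrCTD-GWp and 8.37% (5.04 to 12.9) of 215 reads in NbrCTD, and miR-7-5p was the higher one.

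The neighbours of miR-34 had log2 odds ratios nearer 0 than its -0.95. Of the 6 arms that mir-34 makes with mir-277 and mir-317, 4 were lower and 0 higher, close to the 33 of 48 among arms with 10000 reads or more. miR-277-3p, which controls genes of branched-chain amino acid breakdown, had 1.23% in NbrCTD-GWp and 2.05% in NbrCTD, a log2 odds ratio of -0.75. The passengers miR-277-5p, with 1.77% in NbrCTD-GWp and 1.92% in NbrCTD, and miR-317-5p, with 0.878% in NbrCTD-GWp and 0.990% in NbrCTD, had overlapping intervals. For mir-275 and its neighbour mir-305, both guides were lower, while the intervals of both passengers overlapped. miR-275-5p had 3.42% in NbrCTD-GWp and 4.40% in NbrCTD.

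Guides on the same host transcript fell by different amounts. In the E2f1 intron, both guides were lower, with log2 odds ratios of -0.96 for miR-998-3p and -0.72 for miR-11-3p, while miR-998-5p had 1.57% in NbrCTD-GWp and 1.54% in NbrCTD. miR-279-3p had 6.28% in NbrCTD-GWp and 6.90% in NbrCTD, and miR-996-3p from the same transcript had 1.62% in NbrCTD-GWp and 2.97% in NbrCTD. Their log2 odds ratios of -0.15 and -0.89 lay far apart although the arms share their first 7 bases. In the grp intron, 5 of 8 arms of mir-9c, mir-306, mir-79 and mir-9b were lower, with miR-9b-5p at 1.96% in NbrCTD-GWp and 3.09% in NbrCTD. In the Gmap intron, 2 of 6 arms of mir-12, mir-283 and mir-304 were lower, both of them guides. Beside these counts, 40 of all 118 arms and 33 of the 48 deepest were lower.

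Among 8 sets of measured arms that share their first 7 bases, every member was lower in 4. Both measured members were lower for miR-995-3p with miR-998-3p, miR-275-3p with miR-306-5p, miR-279-3p with miR-996-3p, and miR-9b-5p with miR-9c-5p. For the sequence of the miR-2 and miR-13 arms and miR-6-3p, 4 of 6 were lower. The 8 arms that answer to the K-box, a target motif in Notch-regulated genes, had 5 lower and 0 higher, where 33.9% of all arms and 33 of the 48 deepest were lower. The other 3 of these were miR-13a-3p, miR-6-3p and miR-308-3p, the last with 3.18% in NbrCTD-GWp and 2.95% in NbrCTD. In 2 further pairs 1 of the members was lower. One of these pairs is miR-317-3p, which was lower, with miR-4943-3p, whose intervals overlapped, and its median log2 odds ratio was 0.78. That median does not show a rise, since miR-317-3p itself had -0.41. The tailed reads of miR-4943-3p were only 0.116 miRNA RPM in NbrCTD-GWp and 0 in NbrCTD. Of miR-1003-5p and miR-1012-5p 0 were lower, with a median log2 odds ratio of 0.37. Both intervals included 0, from -0.89 to 0.48 for miR-1003-5p and from -0.42 to 2.30 for miR-1012-5p. Over all arms 33.9% were lower, and 33 of 48 were at 10000 reads or more.

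Among mirtrons, both falls and rises were counted. Of 9 measured mirtron 3p arms, 1 (miR-1007-3p) was lower and 2 were higher in NbrCTD-GWp, and the median log2 odds ratio was -0.13. Over all 118 arms 33.9% were lower and 3.39% higher. Only miR-1003-3p among the 9 had at least 10000 reads in both libraries. Of all arms from 1000 to under 10000 reads, 5 of 37 were lower and 2 higher. From 100 to under 1000 reads, 2 of 33 were lower and 0 higher. The median tailed share of these 9 mirtron arms was 9.53% in NbrCTD-GWp and 7.77% in NbrCTD. Over all arms it was 2.25% in NbrCTD-GWp and 2.73% in NbrCTD. These mirtron medians fall on different arms, miR-1012-3p in NbrCTD-GWp and miR-1003-3p in NbrCTD, so they do not show a rise. miR-1003-3p itself had 7.59% in NbrCTD-GWp and 7.77% in NbrCTD. miR-1016-3p had 12.7% (11.5 to 14.1) in NbrCTD-GWp and 11.8% (10.5 to 13.2) in NbrCTD, and miR-1012-3p had 9.53% (8.36 to 10.8) in NbrCTD-GWp and 10.3% (9.08 to 11.7) in NbrCTD. Of 4 arms known to load into AGO2, where small RNAs receive a methyl group at the 3′ end, miR-277-3p and bantam-5p were lower. All 4 had at least 10000 reads in both libraries, a depth at which 33 of 48 arms were lower. miR-2b-2-5p had 1.33% in NbrCTD-GWp and 1.31% in NbrCTD, and the joined miR-276a-5p and miR-276b-5p had 0.850% in NbrCTD-GWp and 0.759% in NbrCTD.

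Abundance differed at few arms. Of 119 arms that averaged 100 reads or more, 4 were lower in NbrCTD-GWp, which is 3.36%, and 5 were higher, which is 4.2%, at 2-fold or more on the log2(miRNA RPM + 1) scale with non-overlapping Poisson intervals. The median log2 ratio over these arms was -0.09. With the authors' RPM as the scale, 2 were lower and 5 higher. The 3 largest rises were arms of mir-92a and mir-92b, which lie in jigr1 and act in neuroblast self-renewal. miR-92a-3p had 289.6 miRNA RPM in NbrCTD-GWp and 64.8 in NbrCTD, a log2 ratio of 2.14. miR-92b-3p had 323 miRNA RPM in NbrCTD-GWp and 88.0 in NbrCTD, and miR-92a-5p had 65.5 in NbrCTD-GWp and 8.99 in NbrCTD. The tailed shares of both 3p arms overlapped between the libraries, with miR-92b-3p at 4.08% in NbrCTD-GWp and 4.24% in NbrCTD.

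miR-7-5p, which had the higher tailed share, was also more abundant, with 2674 miRNA RPM in NbrCTD-GWp and 1036 in NbrCTD. miR-2c-3p had 708 miRNA RPM in NbrCTD-GWp and 251 in NbrCTD, with the read splitting named above. On the lower side, miR-965-3p had 4074 miRNA RPM in NbrCTD-GWp and 10273 in NbrCTD, a log2 ratio of -1.33, with tailed shares that overlapped. miR-252-5p had 809.6 miRNA RPM in NbrCTD-GWp and 2056 in NbrCTD, a log2 ratio of -1.34. miR-308-5p had 273 miRNA RPM in NbrCTD-GWp and 588 in NbrCTD, and miR-2497-3p had 7.01 in NbrCTD-GWp and 15.1 in NbrCTD. The calls of these last 2 arms depended on the scaling of the libraries, and the other 7 calls held under all 5 other scalings tried.

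**Figure D3:**
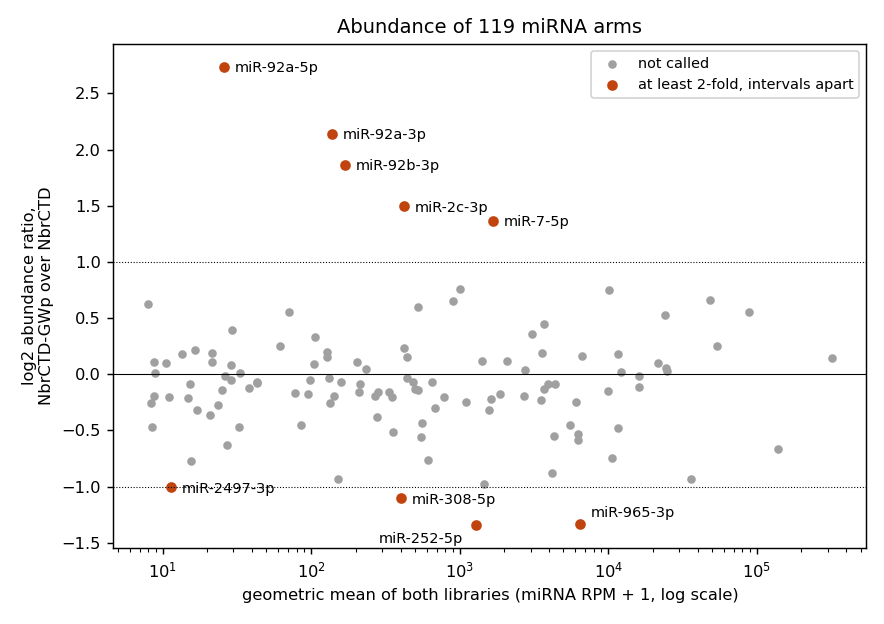
Log2 ratio of abundance, NbrCTD-GWp over NbrCTD (y axis), against the geometric mean of both libraries in miRNA RPM + 1 (x axis, log scale) for 119 arms. The 9 named orange arms were at least 2-fold apart with non-overlapping intervals, and the dotted lines mark 2-fold.

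Arms with large falls in tailed share did not share a direction in abundance. miR-34-5p had 13161 miRNA RPM in NbrCTD-GWp and 7806 in NbrCTD, a log2 ratio of 0.75. miR-184-3p had 107553 miRNA RPM in NbrCTD-GWp and 73174 in NbrCTD, a log2 ratio of 0.56. In contrast miR-980-3p had 8144 miRNA RPM in NbrCTD-GWp and 13670 in NbrCTD, and miR-998-3p had 4244 in NbrCTD-GWp and 4512 in NbrCTD. None of these 4 reached 2-fold. miR-14-3p, a suppressor of cell death, had 109513 miRNA RPM in NbrCTD-GWp and 173947 in NbrCTD, also under 2-fold.

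The balance of the arms of a precursor differed in 14 of 54 precursors with at least 20 reads for each arm in each library. Passenger reads per 100 guide reads were lower in NbrCTD-GWp in 6, which is 11.1%, and higher in 8, which is 14.8%, at 1.5-fold or more with non-overlapping exact intervals. This measure does not depend on how the libraries are scaled. The precursor of miR-12 had 8.34 (7.96 to 8.74) passenger reads per 100 guide reads in NbrCTD-GWp and 27.0 (26.0 to 28.1) in NbrCTD. The precursor of miR-7 had 4.85 (4.65 to 5.06) in NbrCTD-GWp and 12.8 (12.2 to 13.4) in NbrCTD. That of miR-34 had 10.7 in NbrCTD-GWp and 22.5 in NbrCTD, that of miR-999 had 1.86 in NbrCTD-GWp and 4.60 in NbrCTD, and that of miR-308 had 10.8 in NbrCTD-GWp and 20.4 in NbrCTD.

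On the other side, the precursor of miR-965 had 10.7 (10.5 to 11.0) passenger reads per 100 guide reads in NbrCTD-GWp and 4.34 (4.23 to 4.45) in NbrCTD. The precursor of miR-282 had 27.2 in NbrCTD-GWp and 12.7 in NbrCTD, and that of miR-79 had 10.3 in NbrCTD-GWp and 4.91 in NbrCTD. That of miR-14 had 1.98 (1.96 to 2.00) in NbrCTD-GWp and 1.15 (1.13 to 1.16) in NbrCTD, and that of miR-92a had 22.6 in NbrCTD-GWp and 13.9 in NbrCTD. In several called precursors the guide moved more than the passenger, and in others the passenger moved more. For miR-12 the log2 abundance ratio was 0.76 for the guide and -0.93 for the passenger. For miR-308 it was -0.19 for the guide and -1.10 for the passenger. The reads that follow are not scaled for depth, which was 17269733 reads of the 288 arms in NbrCTD-GWp and 14468227 in NbrCTD. For miR-965 the guide had 70365 reads in NbrCTD-GWp and 148636 in NbrCTD, while the passenger had 7539 in NbrCTD-GWp and 6447 in NbrCTD. For miR-7 the guide had 46174 reads in NbrCTD-GWp and 14993 in NbrCTD, while the passenger had 2239 in NbrCTD-GWp and 1922 in NbrCTD. For miR-34 the guide had 227286 reads in NbrCTD-GWp and 112944 in NbrCTD, with 24313 passenger reads in NbrCTD-GWp and 25392 in NbrCTD. Over all 54 precursors the ratio was lower in NbrCTD-GWp in 27 and higher in 27.

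**Figure D4:**
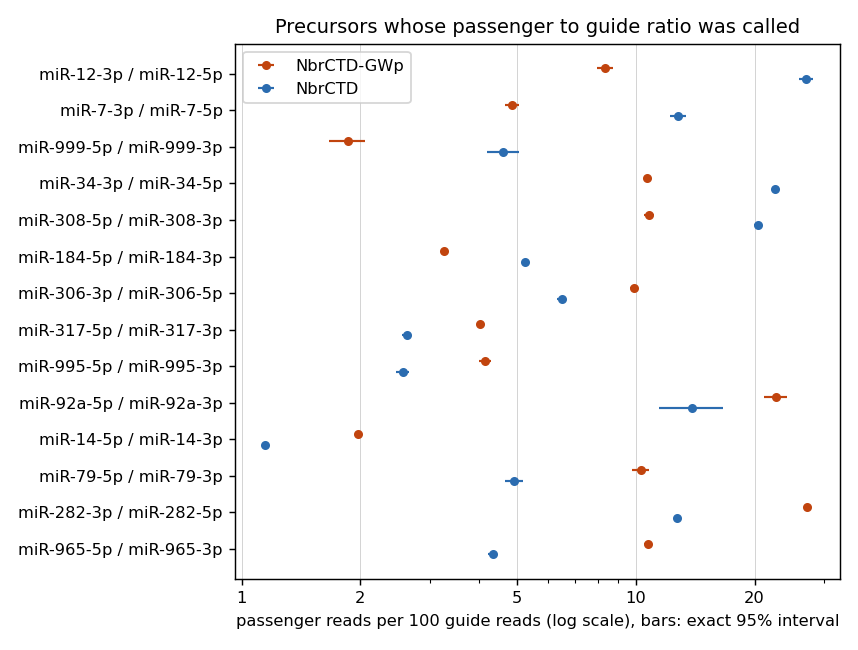
Passenger reads per 100 guide reads (x axis, log scale) of the 14 precursors at least 1.5-fold apart with non-overlapping intervals, with exact 95% intervals as bars, orange for NbrCTD-GWp and blue for NbrCTD. The upper 6 precursors, led by miR-12, are lower in NbrCTD-GWp, and the lower 8, ending with miR-965, are higher.

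Among the 118 arms, all of them listed at the same 5′ end in both libraries, use of that end was alike in most. The 3p arms of mir-2a-2 and mir-252 were listed at different ends in the libraries and are not among them. The fraction of an arm's reads held by its listed 5′ isoform was lower in NbrCTD-GWp by at least 2 percentage points in 9 of 118 arms, which is 7.63%, and higher by as much in 9, also 7.63%. Unlike the other calls, these use no interval, so counting error is not considered in them. With a minimum of 500 reads, 3 of 91 arms were lower and 5 higher. miR-2a-2-5p had 56.1% in NbrCTD-GWp and 70.6% in NbrCTD, with 53476 reads in NbrCTD-GWp and 82197 in NbrCTD behind the listed isoform. miR-2c-3p had 80.4% in NbrCTD-GWp and 92.0% in NbrCTD. miR-2497-3p had 61.4% in NbrCTD-GWp and 76.2% in NbrCTD, from 121 reads in NbrCTD-GWp and 218 in NbrCTD. miR-2b-1-5p had 84.3% in NbrCTD-GWp and 92.3% in NbrCTD, from 247 reads in NbrCTD-GWp and 262 in NbrCTD. On the higher side, miR-995-5p had 82.3% in NbrCTD-GWp and 77.8% in NbrCTD, and miR-307a-3p had 79.1% in NbrCTD-GWp and 75.8% in NbrCTD. miR-970-5p had 95.6% in NbrCTD-GWp and 92.0% in NbrCTD, from 435 reads in NbrCTD-GWp and 369 in NbrCTD. miR-968-3p had 90.4% in NbrCTD-GWp and 85.7% in NbrCTD, from only 123 reads in NbrCTD-GWp and 120 in NbrCTD. Arms of the miR-2 family made up 3 of the 4 largest falls, while miR-2a-3p was on the higher side with 67.0% in NbrCTD-GWp and 64.2% in NbrCTD. miR-34-5p, miR-980-3p and bantam-3p kept more than 98% of their reads on the listed 5′ end in both libraries.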

How the data were processed

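Small RNA reads (18 to 30 nt) of 2 S2 libraries were compared, from the authors' deposited table. cutadapt 1.2.1 and HTSeq 0.9.1 were used, per the submitters' processing notes. Which aligner, counting and genome build were used is not given in the sources used here. For each library the authors deposited RPM, per the file headers, of reads headed GM, read here as genome-matching, and PM, read as prefix-matching with a 3′ tail, a fraction (0 to 1), the listed 5′ isoform over all reads of its arm, and a TRUE or FALSE mark. The headers do not spell out GM or PM, and tail bases and read lengths are not in the table. Whether the 4 random adapter bases served to remove PCR duplicates is not stated.

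RPM divided by the worth of 1 read gave totals of 27312149 reads in NbrCTD-GWp and 26500155 in NbrCTD. In NbrCTD-GWp 95.8% of GM and 91.7% of PM values, and in NbrCTD 94.8% and 94.5%, were whole within 0.01 read. Fractional values, as of reads split over loci, were kept and rounded for intervals only, and no count model was fitted. Loci that share a name and a 5′ end were summed, which joined 8 arms. Tailed share is PM over GM plus PM, for arms with at least 100 reads in both libraries. Log2 odds ratios, NbrCTD-GWp over NbrCTD, had 0.5 reads added. Abundance used reads of the 288 arms as the total, a pseudocount of 1 RPM and arms averaging 100 reads or more, on the log2(value + 1) scale, which understates changes of rare arms. Intervals are exact 95% Clopper-Pearson or Poisson intervals. The guide is the arm with more reads over both libraries. Host genes are from the BDGP6 annotation by name only, since just 30 of 297 listed 5′ ends matched it. The entry named bft-5p is given as miR-263a-5p, since the RefSeq gene table lists mir-263a as its synonym.

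Named arms are the 14 largest falls and 6 largest rises in points (4 rises were called), the 8 largest falls in log2 odds ratio, the 8 deepest arms, measured reported substrates, the highest and lowest called abundance ratios, the 4 largest 5′ isoform differences each way, the 5 largest arm-ratio differences each way and arms at the edge of the call. Other arms were named after their values were seen. Members and lists were chosen with earlier results of these data known. Python 3.11.15, numpy 2.4.6, pandas 2.3.3, scipy 1.17.1 and matplotlib 3.10.9 were used. The nbrKO library was not used, and Nbr(wt) served only for values set beside the others.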

Additional observations from a re-analysis of the deposited data

Results flagged for a closer look

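The 3p arm of mir-2a-2 is outside the comparisons above, because the deposited table lists it at a different 5′ end in each library. In NbrCTD-GWp it had 496311.7 reads at an end that reads tATCACA (bases 2 to 7 in capitals), with a tailed share of 1.05%, and this end held 57.3% of the arm. In NbrCTD it had 317272.5 reads at an end 2 bases further in that reads tCACAGC, with a tailed share of 3.39%, and this end held 51.9% of the arm. The miR-2a-3p of the comparisons is therefore the mir-2a-1 locus alone. Reads are split among the near-identical miR-2 loci, so both values are uncertain.

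The 3p arm of mir-252 was likewise listed at ends 1 base apart. In NbrCTD-GWp it had 186 reads at an end that reads tCCTGCT and held 46.7% of the arm, and in NbrCTD it had 460 reads at an end that reads cCTGCTG and held 48.4%. Every other entry given in 1 of these libraries only had fewer than 100 reads, with sums of 142.8 reads in NbrCTD-GWp and 114.0 in NbrCTD.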

How the results depend on the processing

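No paired analysis was possible because each group has 1 library, and for the same reason no library could be left out. Tailed share counts stayed at 35 to 43 lower and 3 to 4 higher with other read minimums, 99% intervals, whole reads only or unsummed loci, and without the miR-2 and miR-13 family (36 lower, 3 higher, an alternative chosen after seeing the data). With a log2 odds ratio of 0.5 or more also required, calls came to 21 lower and 1 higher. Abundance with the authors' RPM as scale gave 2 lower arms (its median over the 119 arms lay 0.21 higher on the log2 scale), and a 1.5-fold threshold gave 13 lower and 11 higher. miR-2497-3p lost its call under each of 5 other scalings (log2 ratios -0.97 to -0.76), and miR-308-5p under the authors' RPM (-0.89). For the 5′ isoform fraction, a minimum of 500 reads gave 3 lower and 5 higher, and a difference of 5 points gave 4 lower and 0 higher. At 2-fold, 4 arm ratios were lower and 3 higher, against 6 and 8 at 1.5-fold. Of the named arms' abundance values under other scalings, 209 kept their side of the call. Another pseudocount cannot change a tailed share call, since calls rest on intervals. The planned split by mature length and last base was not run. Depth limits what can be seen of tails below 1000 reads per arm.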
